A study of Arabidopsis thaliana with 210 samples.

Results

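The 61 genes described here are the nuclear genes of Arabidopsis thaliana that held at least 5 counts in at least 80% of the deep single-nucleus Smart-seq2 wells of both p1 and p2, out of 29417 nuclear genes in the table. A well was taken as deep when it held at least 50000 counts on nuclear, plastid and mitochondrial genes, which left 57 of 93 p1 wells and 81 of 93 p2 wells. A further 7 genes passed the same thresholds but belong to 9 abundant leaf genes for Rubisco small subunits and chlorophyll-binding proteins that the rule leaves out. Nuclear RNA came from shoot apices of Col-0 seedlings grown on soil and harvested 7 days after germination, and every well is labelled as stem cells. Of 210 wells, bulk wells, 1 for each p number, are labelled as 50 nuclei while their column names carry the number 10. Single nuclei were measured by Smart-seq3 in 8 p1 and 12 p2 wells and by Smart-seq2 in 93 wells each of p1 and p2, both methods that copy whole transcripts from the poly(A) tail. A further 2 p2 wells, the control wells, received no nucleus. The labels state no meaning for p1 and p2 and name no plant or pool behind a nucleus. Each group was therefore 1 sample, no test between groups was possible, and every difference below describes these libraries without a replicate check.

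Shoot apices of seedlings hold the meristem and the young leaves around it, and green leaf cells make large amounts of RNA for the light reactions and carbon fixation of photosynthesis. Ribosomal RNA genes lie in long tandem arrays of near-identical units, so that counts cannot be assigned to a single copy. The polymerase that makes 18S and 5.8S ribosomal RNA adds no poly(A) tail of the messenger kind.

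Smart-seq3 wells held a median of 55305 counts in p1 and 605497 in p2, and deep Smart-seq2 wells held 2023182 and 414894. The 61 genes took 10.1% of all counts of deep p1 Smart-seq2 wells and 16.5% of those of p2, and the control wells held 7953 and 8676 counts. The label of stem cells was checked against marker genes fixed with the design. CLV3, which marks stem cells of the shoot meristem, reached 5 counts in 26.3% of deep p1 wells and 6.17% of deep p2 wells, and WUS, which marks the organising centre, did so in 1.75% and 2.47%. STM and KNAT1, homeobox genes of the shoot meristem, did so in 29.8% and 42.1% of deep p1 wells and 32.1% and 38.3% of deep p2 wells. For ATML1 and PDF1, which mark the epidermis, the shares were 49.1% and 94.7% in p1 and 37% and 53.1% in p2. RBCS1A and CAB1, which mark green leaf cells, did so in 100% of deep wells of p1 and p2. RNA of these leaf genes was thus counted in every deep well beside the labelled cell type, and its part in the results below was not tested.

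The 61 genes fell into 6 classes by annotation and by counts in the control wells, a grouping made after their values were seen. There were 23 genes of photosynthesis, 8 of translation and primary metabolism, 3 of ribosomal RNA, 3 that lie beside ribosomal RNA genes, 13 others that had at least 10 counts over both control wells (the control-well genes) and 11 remaining genes. The ribosomal RNA genes AT3G41768 and AT3G41979 also held over 10 counts there but were kept in their own class. Alone, p1 had 373 nuclear genes past the thresholds and p2 had 82, so the p2 wells set the list more than the p1 wells did. Only 7 members held at least 5 counts in every deep well of p1 and p2. These were AT3G41768, an 18S ribosomal RNA gene, and the control-well genes AT2G30230, AT5G18610, AT3G30300, AT4G31570, TPPI and SHP1. Close to the threshold, GAPA and PSAL lay inside at 80.2% of p2 wells and AT4G36980 inside at 80.7% of p1 wells, while PSAK, GER1 and AT2G16940 lay outside at 79% of p2 wells.

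The photosynthesis genes cover the antenna, both photosystems, the cytochrome b6f complex and the Calvin cycle. As a class they held 3896 to 200465 counts per deep p1 well (median 54636) and 1102 to 56211 per deep p2 well (median 9002), against 12 and 7 counts in the control wells. They made up a median of 2.56% of the counts of a deep p1 well and 2.11% of a deep p2 well, so the medians were similar although depth differed. Single wells varied widely, from 0.56% to 5.47% in p1 and from 0.42% to 13.9% in p2. Among antenna proteins, which bind chlorophyll and pass on light energy, LHCB3 held 31 to 17653 counts in p1 (median 2668) and 1 to 6311 in p2 (median 670). LHB1B2 held 324 to 11255 counts in p1 (median 2735) and 3 to 4172 in p2 (median 833), and LHCA4 of photosystem I held 4 to 9956 in p1 (median 2594) and 0 to 2839 in p2 (median 723). The other antenna members were LHCA1, LHCA2, LHCA3, LHCB4.1, LHCB5 and LHCB6, with 0 to 2 counts in either control well. PSBO1, which stabilises the oxygen-evolving centre of photosystem II, held 6 to 20011 counts in p1 (median 2650) and 0 to 2303 in p2 (median 259). PSBR, another photosystem II subunit, averaged 2141 CPM per kb of exon in p1 and 2088 in p2, the highest length-scaled level of the class. CPM is the count of a gene scaled to the summed counts of the library on nuclear, plastid and mitochondrial genes. RCA, which keeps Rubisco active, had a summed level of 2268 CPM in p1 and 1476 in p2, or 1079 and 703 CPM per kb. GAPA, GAPA-2 and FBA2, enzymes of the Calvin cycle, reached 5 counts in 80.2%, 81.5% and 90.1% of deep p2 wells. Of a list of 26 photosynthesis loci, 13 were members, against 0.207% of all nuclear genes.

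Translation and primary metabolism gave 8 members. AT5G60390, an EF1A translation elongation factor used as a reference gene in plant expression work, held 602 to 57825 counts in deep p1 wells (median 5951) and 0 to 6206 in deep p2 wells (median 210). GAPC2, the cytosolic glyceraldehyde-3-phosphate dehydrogenase of glycolysis, held 135 to 16385 counts in p1 (median 3019) and 0 to 2011 in p2 (median 118). All deep p1 wells held both genes well above 5 counts, whereas some deep p2 wells held none. HOG1, which removes S-adenosylhomocysteine left by methylation reactions, and ATMS1, a methionine synthase, serve the same methyl cycle. For HOG1 the median count was 3359 per p1 well and 137 per p2 well, and for ATMS1 it was 2327 and 92. The chaperone HSC70-1 held a median of 3433 counts per p1 well and 321 per p2 well. AT5G20290, AT4G27090 and AT3G60245 encode ribosomal proteins, with p2 medians of 174, 158 and 188 counts. They were 3 of 343 genes whose product name holds the words ribosomal protein in any letter case. The list as first written took lower case only and found 1 member, AT3G60245, among 105 genes. Of 23 reference genes, 2 were members (AT5G60390 and GAPC2), and the median reference gene reached 5 counts in 89.5% of p1 wells and 46.9% of p2 wells. No gene was a member from the lists for the clock and light signalling (19 genes), large regulators (12), meristem (8), histones (47), RNA binding and splicing (412), chromatin (307) or transport (850). Of further product-name lists, transcription factors had 1 member of 1013 (SHP1), chaperones 1 of 273 (HSC70-1), the ubiquitin and proteasome list 1 of 1335 (AT5G10340), kinases and phosphatases 2 of 1649 (AT5G18610 and PRIN2), the cytoskeleton 1 of 170 (KIS), and lipid and wall genes 1 of 443 (LP1). Translation factors had 1 of 85 (AT5G60390) with letter case ignored and 0 of 64 as first written, and the other product-name lists were searched as first written only. Each match in a product-name list rests on the name alone, which is Serine/Threonine-kinase for PRIN2. The function behind a name was not checked, and members with other names could be missed. Over all nuclear genes, 0.207% were members, against 8.7% of the reference genes. In the lists named after the reference genes, counts of 0 to 2 are too small to set apart from the background. Membership alone therefore shows nothing particular to those lists.

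Upstream sequence was read for both classes from RefSeq TAIR10.1, taking 250 bases before the annotated start of each gene. The site II core GGCCCA, searched on both strands, was found in 4 of 8 promoters of the translation and metabolism genes, 1 of 23 promoters of the photosynthesis genes and 13.9% of 26706 promoters of protein-coding genes. The telo box AAACCCTA was in 2 of 8, 0 of 23 and 4.44% in the same order, and the G box CACGTG in 2 of 8, 3 of 23 and 6.58%. The TATA box TATAAA was in 4 of 8, 11 of 23 and 47.7%. A pair is shown because it holds the motif that differs most between the classes and a G box upstream of an antenna gene, with the motifs in capitals, written 5′ to 3′ on the strand of the gene.
AT3G60245, chr3:22268438-22268687, plus strand: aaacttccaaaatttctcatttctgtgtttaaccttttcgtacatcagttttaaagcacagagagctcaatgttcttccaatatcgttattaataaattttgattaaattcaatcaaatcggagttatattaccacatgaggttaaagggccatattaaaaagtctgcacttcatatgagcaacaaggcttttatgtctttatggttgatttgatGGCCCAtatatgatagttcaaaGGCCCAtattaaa
LHCA4, chr3:17495034-17495283, minus strand: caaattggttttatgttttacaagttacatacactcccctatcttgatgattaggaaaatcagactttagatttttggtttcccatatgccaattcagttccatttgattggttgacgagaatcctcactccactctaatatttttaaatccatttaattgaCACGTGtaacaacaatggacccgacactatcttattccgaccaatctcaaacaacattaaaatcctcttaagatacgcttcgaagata
The first belongs to the ribosomal protein gene and holds 2 copies of the site II core close to the start, and the second belongs to LHCA4 and holds a G box. These letters are matches only, and no binding was measured.

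Ribosomal RNA genes had the highest levels per kb of exon of all members, 15887 to 23385 CPM in p1 and 48209 to 93013 CPM in p2. AT3G41768, annotated as 18S, held 11175 to 274218 counts per deep p1 well (median 90733) and 105 to 148048 per deep p2 well (median 34764), against 15 and 93 in the control wells. Summed over wells, p1 gave 42280 CPM of this gene and p2 gave 87162. For AT3G41979, annotated as 5.8S, the median was 6300 counts in p1 wells and 5813 counts in p2 wells. AT2G01020 had medians of 6094 and 5811 and is annotated as 5S, but its 164 bases are identical to those of AT3G41979. The division of counts between the 2 genes is therefore uncertain. AT2G01010, the 18S gene on chromosome 2 that was not a member, reached 5 counts in 78.9% of p1 wells and 67.9% of p2 wells.

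By annotated position, AT2G01008 and AT2G01021 on chromosome 2 and AT3G41762 on chromosome 3 lay near these genes. Whether any of them lies within a ribosomal RNA transcript was not tested, and their class name gives annotated position only. AT2G01008 spans chr2:1025-3173 and AT2G01021 spans chr2:6571-6672, on either side of AT2G01020 at chr2:5782-5945. AT3G41762 spans chr3:14195447-14196865, before AT3G41768 at chr3:14197677-14199484. AT2G01008 held 43 to 31577 counts in p1 (median 5118) and 0 to 5665 in p2 (median 471), with 0 in both control wells. AT2G01021 held medians of 2262 counts in p1 and 173 in p2 over a gene of only 102 bases. Per kb of exon this came to 14436 CPM in p1 and 9240 CPM in p2, below the 3 ribosomal RNA genes and above every other member. Of the 50-base words of AT2G01008, 73.2% occurred elsewhere in the nuclear chromosomes, and for AT3G41762 and AT2G01021 this share was 75.5% and 100%.

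Among the 11 other members, AT2G16586, an uncharacterised gene, had the highest level per kb of exon, 2453 CPM in p1 and 2420 in p2. LP1, a lipid transfer protein of the epidermis, held 6 to 7827 counts in p1 (median 2235) and 0 to 3013 in p2 (median 347). ERD15, first found as a dehydration-induced gene, held medians of 474 counts in both p1 and p2. TIC, a nuclear regulator of the circadian clock, held medians of 390 and 99. LpxC2 and the noncoding AT1G25098 lie in a repeated stretch of chromosome 1, where 100% and 99.6% of their 50-base words occurred elsewhere and 2090 of the 2123 distinct words of LpxC2 were found in AT1G25098. The remaining others were ENODL2, AT1G20920, AT1G68945, AT4G36980 and AT5G10340.

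The spread between nuclei differed widely among members. The interquartile range of log2(CPM + 1), averaged over p1 and p2, was lowest for ATYKT62 (0.93), SHP1 (0.98), AT3G41768 (0.98), TPPI (1.02) and AT1G10095 (1.03), 4 of which are control-well genes. It was highest for AT4G36980, a putative splicing protein (4.15), followed by ENODL2 (3.8), ERD15 (3.07), TIC (3.06) and AT1G20920 (3.05). For translation and metabolism genes the median range was 1.04 in p1 and 3.34 in p2, and for photosynthesis genes it was 1.45 and 2.13. For control-well genes it was 1.45 and 1.23, against 1.38 and 1.91 over all members, so only in p2 was it lower. The lowest p1 and p2 wells of AT4G36980, ENODL2, ERD15 and AT1G20920 held 0 counts.

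The 13 control-well genes held 1141 and 571 counts together in the wells without a nucleus, 856 ± 403 (SD, n = 2), a value that chose them. In deep single-nucleus wells they held 177 to 5113 counts in p1 (median 991) and 653 to 5435 in p2 (median 1626). The wells with 0 nuclei lay within the range of the p1 wells, and 1 of the 2 lay within that of the p2 wells. Bulk wells, which the choice did not use, held 731 (p1) and 1191 (p2) counts of them. These summed counts with 0 nuclei and in bulk lay within the range of the single-nucleus wells of p1, whereas the photosynthesis class had 62111 (p1) and 32158 (p2) counts in bulk. Across deep p2 wells, the summed count of the 13 genes had a Spearman's rho of 0.03 with the total of the well (81 wells), and across deep p1 wells of 0.58 (57 wells). For photosynthesis genes, rho was 0.62 in p2 and 0.83 in p1, and the sum is part of the total in each case. At least 5 counts were found in each control well for 15 members, against 0.129% and 0.112% of all nuclear genes.

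**Figure D1:**
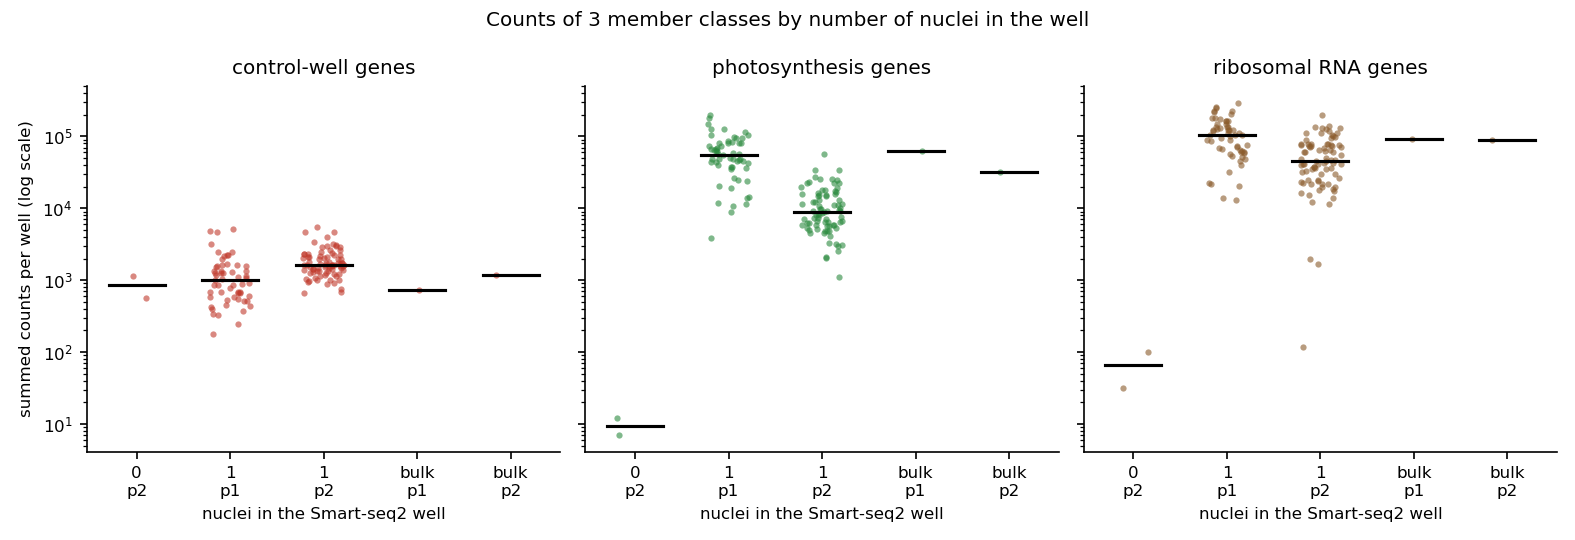
Summed counts per Smart-seq2 well (log scale) of the control-well, photosynthesis and ribosomal RNA classes, for wells with 0 nuclei (p2), deep wells with 1 nucleus (p1, p2) and bulk wells. Each point is a well and bars are medians. Control-well genes hold 571 to 1141 counts with 0 nuclei and 731 and 1191 in bulk wells, while photosynthesis genes hold 7 and 12 with 0 nuclei and 62111 and 32158 in bulk wells.

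Between the control wells, most single control-well genes differed by a smaller factor than their sum of 1141 and 571 counts. AT5G18610, a protein kinase gene, held 114 and 139 counts in the control wells, 21 to 605 in deep p1 wells (median 146), 83 to 1168 in deep p2 wells (median 166), and 111 (p1) and 152 (p2) in bulk. Its medians in p1 and p2 were close although the deep p1 wells were far deeper. AT3G30300, annotated as an O-fucosyltransferase, held 58 and 44 counts in the control wells, medians of 116 per p1 well and 95 per p2 well, and 105 (p1) and 119 (p2) in bulk. TPPI, annotated as a HAD-type hydrolase, held 46 and 41 counts in the control wells, medians of 90 and 85 per p1 and p2 well, and 68 (p1) and 243 (p2) in bulk. All 3 had their control-well counts within the range of the deep p1 wells. AT2G30230, annotated as a lumazine synthase, varied most between the control wells, with 637 and 107 counts. It made up most of the difference between the sums of the control wells. AT2G30230 held 7 to 802 counts in deep p1 wells (median 49), 69 to 4311 in deep p2 wells (median 517), and 30 (p1) and 125 (p2) in bulk. SHP1, a MADS-box gene known for the margins of the fruit valves, held 12 and 9 counts in the control wells, a median of 20 in both p1 and p2 wells, and 25 (p1) and 22 (p2) in bulk. KIS, a tubulin folding cofactor, held 10 and 8 counts in the control wells and a median of 38 per p1 well and 10 per p2 well. The others were AT1G10095, PRIN2, SCPL12, PBL1, PUX3, AT4G31570 and ATYKT62, which held 6 to 69 counts in either control well.

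Shallow wells did not follow the control wells. With a median total of 6023 counts, 36 shallow p1 wells held 2 to 46 counts of the 13 genes (median 9.5), and 12 shallow p2 wells with a median total of 2436.5 held 2 to 32 (median 12.5). Each of these values lies below both control wells, whose totals were 7953 and 8676. At least 1 count was found for a median of 49 members per shallow p1 well and 26.5 per shallow p2 well, against 31 and 28 in the control wells. Part of the low counts in shallow p1 wells moved with the well numbers in the labels. Of 709 genes with at least 500 p1 counts of which at least 90% lay in 1 well, a count was present in 15.4% of shallow p1 wells whose number shared a block of 8 or a remainder by 8 with that well, and in 1.33% of the others. The part of this in the detection of members was not tested. When every deep well was thinned to 50000 counts, 23 members still passed the rule and none of the 13 control-well genes did. Together the 13 genes made up a median of 0.051% of the counts of a deep p1 well and 0.38% of a deep p2 well. Few of their counts could remain after thinning, so this outcome follows from their level.

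The sequence of the control-well genes held long runs of A or T. A run of at least 16 bases within the gene was present in 11 of the 13, in 0 of the 44 other protein-coding members and in 4.66% of 26707 protein-coding genes. This feature was found by searching words shared by the 13 genes, and the length of 16 was set after the values were seen, so no test is given. The longest runs were 41 bases in TPPI, 37 in AT5G18610, 36 in AT2G30230, 31 in AT1G10095, 30 in AT4G31570 and 29 in PRIN2. The exceptions were ATYKT62 with 14 bases and PUX3 with 7. The search covered the annotated gene only, and the 250 bases before the start of PUX3 hold a far longer run of A. Upstream bases were not searched for runs across genes. The shorter runs are printed with their flanks from RefSeq TAIR10.1, 5′ to 3′ on the strand of the gene, with the longest run of A or T in capitals, and the exceptions come last.
SCPL12, chr2:9753632-9753661, plus strand: ctcaaTTTTTTTTTTTTTTTTTTTTggtag
KIS, chr2:12959219-12959248, plus strand: ataaaacTTTTTTTTTTTTTTTTgtcaaag
AT3G30300, chr3:11924468-11924497, minus strand: aacatagAAAAAAAAAAAAAAAAgtaaatt
PBL1, chr3:20558184-20558213, plus strand: tcccaTTTTTTTTTTTTTTTTTTTgtgatt
SHP1, chr3:21740280-21740309, plus strand: tattagAAAAAAAAAAAAAAAAAAgtcctt
ATYKT62, chr5:23545264-23545293, plus strand: ggttttagTTTTTTTTTTTTTTgttatgtg
PUX3, chr4:11731241-11731263, minus strand: cgtttctcTTTTTTTgtactaga
The runs of PBL1 and SHP1 lie in a coding exon of 1 annotated transcript and outside the exons of the others. Those of SCPL12, KIS, AT3G30300, ATYKT62 and PUX3 lie in an exon outside the coding sequence in at least 1 transcript. The flanks differ between the genes.

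Over all protein-coding genes, the share with a count in both control wells was 0.166% of 22888 genes with runs of up to 11 bases, 0.466% of 2575 with 12 to 15, 2.74% of 875 with 16 to 19, 4.13% of 339 with 20 to 29 and 16.7% of 30 with 30 to 43, so it was higher in each longer bin. These shares include the control-well genes, from which the feature was found. Without the members, whose class was itself defined by counts in these wells, the shares were 0.131%, 0.428%, 2.3% and 3.56%, and 0 of 25 genes in the bin of the longest runs. That bin lost its 5 genes with such counts because all 5 are members. At a minimum of 5 counts in both wells, the rise was not steady. The share of all genes was then 1.14% with 16 to 19 bases, 0.59% with 20 to 29 and 16.7% with 30 to 43. Without the members it was 0.69%, 0% and 0% in the same bins. Of 12 non-members with at least 5 counts in both control wells, 6 had a run of at least 16 bases and 4 a run under 12. BAP1 was among those with a long run, of 18 bases, and reached 5 counts in 100% of deep p2 wells and 77.2% of deep p1 wells. Control-well genes also were longer than other members, with a median length of 3427 bases against 1694.5 for the 44 other protein-coding members and 2109 for all protein-coding genes. The part of length and of runs in the counts was not tested.

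**Figure D2:**
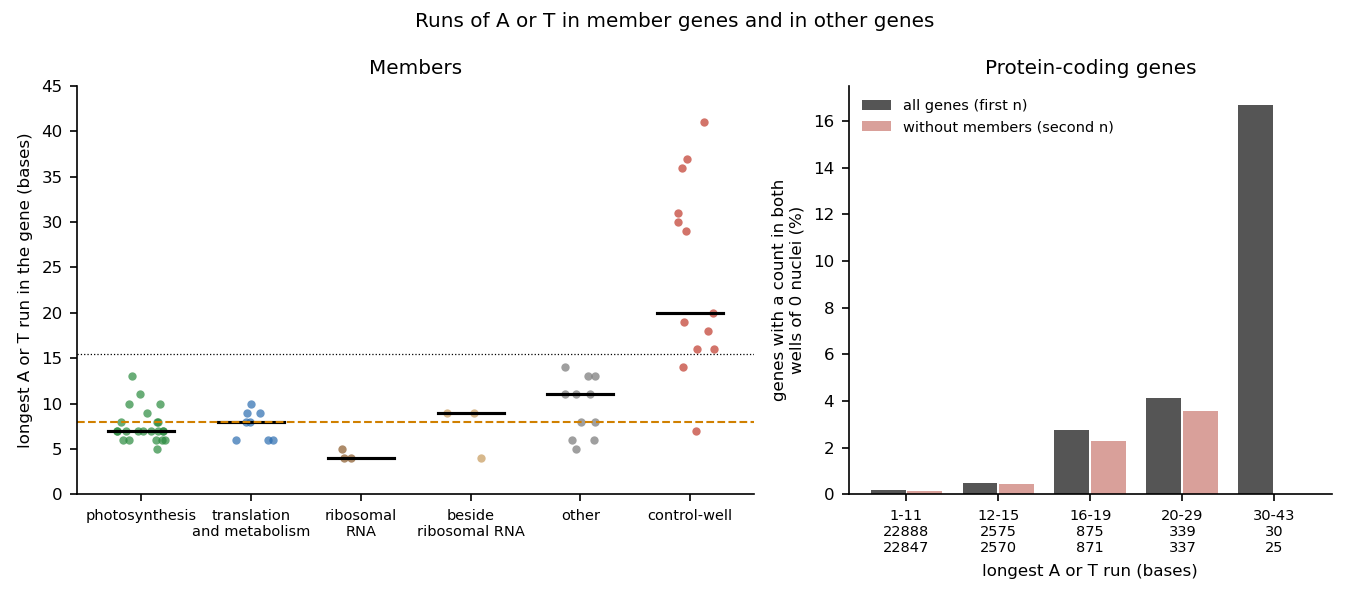
Left, longest run of A or T in each member gene by class, in bases; points are genes, bars are class medians, the dashed line is the median of all protein-coding genes (8 bases) and the dotted line separates runs of 16 bases or more. Right, percentage of protein-coding genes with a count in both wells of 0 nuclei, by longest run, for all genes (dark bars) and without the members (light bars), with the number of genes of each under the bins. Of the 13 control-well genes, 11 lie above the dotted line and no other member does, and in the right panel all genes reach 4.13% at 20 to 29 bases and 16.7% at 30 to 43, where the 25 genes without the members have none.

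Photosynthesis and control-well genes had higher correlations within their class than members had as a whole. Spearman's rho of log2(CPM + 1) had a median over the 253 pairs of photosynthesis genes of 0.17 across deep p1 wells and 0.27 across deep p2 wells, and over all 1830 pairs of members it was 0.0022 and -0.00095. In the 12 p2 Smart-seq3 wells, which the rule did not use, the medians were 0.19 and 0.01. For the 78 pairs of control-well genes, the median was 0.27 (p1) and 0.40 (p2), or 0.11 and 0.30 after thinning to 50000 counts, and 0.39 in p2 Smart-seq3. Translation and metabolism genes had lower medians of 0.13 and 0.10, and the 55 pairs of the 11 other members had -0.0027 and 0.08, in p1 close to that of all pairs. All members of a well share its depth and library, and these values are descriptions.

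The strongest pairs lay around ribosomal RNA and its repeats. AT2G01008 and AT3G41762 had a rho of 0.95 in p1 and 0.92 in p2, and shared 912 of the 1910 distinct 50-base words of AT2G01008. AT5G10340, an F-box gene on chromosome 5, followed AT2G01008 at 0.83 and 0.90, and AT2G16586 followed it at 0.82 and 0.84. AT5G10340 shared 13 words with AT2G01008, with a longest shared stretch of 59 bases, and AT2G16586 shared 167, so counts of these 4 genes may not be separable at the shared words. How the authors' counting divided such reads is not given in the sources used here. AT3G41979 and AT2G01020, with identical sequence, had a rho of 0.07 in p2 Smart-seq3 wells and 0.99 in p2 Smart-seq2 wells. LpxC2 and AT1G25098 had 0.55 in p1 and 0.80 in p2. Other strong pairs shared 0 words of 50 bases. AT2G16586 and AT3G41768 had 0.74 in p1 and 0.72 in p2, and AT2G01021 and AT3G41768 had 0.72 and 0.63. AT2G01021 and AT2G16586 had 0.55 and 0.75. AT2G16586 and AT5G10340 also shared 0 words with each other. The part of shared words in these correlations was not tested.

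**Figure D3:**
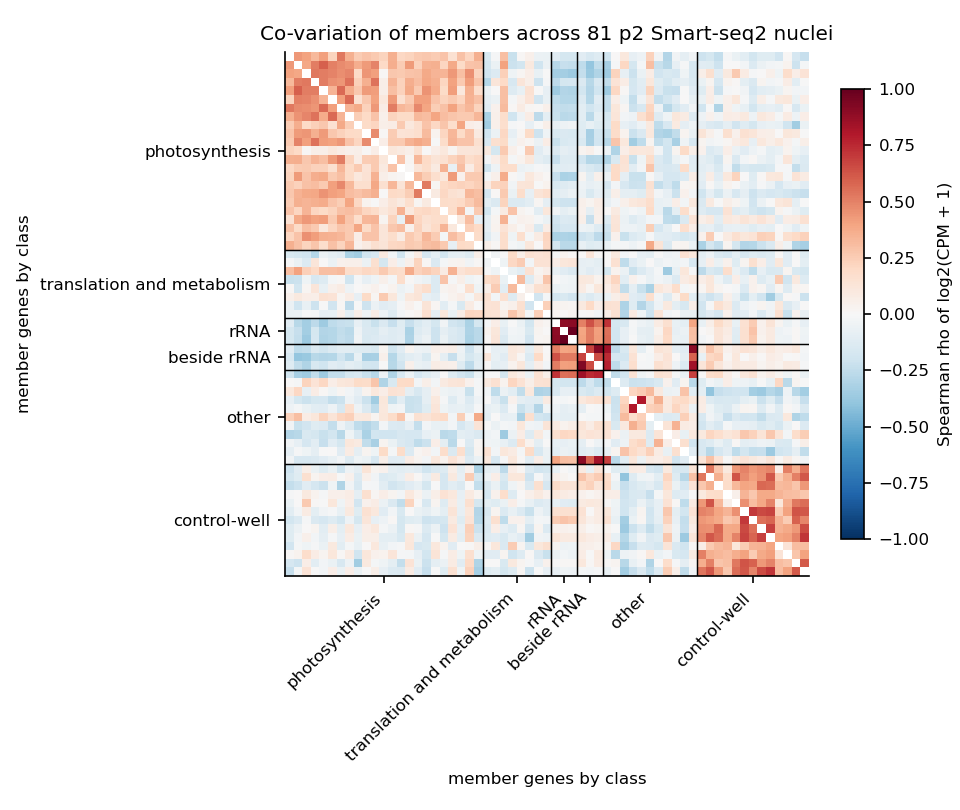
Spearman's rho of log2(CPM + 1) between all pairs of the 61 members across 81 deep p2 Smart-seq2 wells, with genes grouped by class and the diagonal left blank. Red blocks mark the photosynthesis genes (median 0.27), the ribosomal RNA genes and their neighbours, and the control-well genes (median 0.40).

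In libraries that the rule did not use, members were found unevenly. Both bulk wells held at least 5 counts of all 61 members, where 51.6% of nuclear genes in p1 and 51.3% in p2 did so. In Smart-seq3 wells, 14 members reached 5 counts in at least 80% of p1 nuclei and 35 in p2, against 0.636% and 0.347% of all nuclear genes. The 14 in p1 comprised 9 control-well genes, 2 ribosomal RNA genes, AT2G01008, AT2G16586 and ATMS1, and no photosynthesis gene. Among the 35 in p2 were 13 of 23 photosynthesis genes and 8 of 13 control-well genes. LHCB3, LHB1B2, LHCA1 and LHCA4 reached 5 counts in all 12 p2 wells but in 5, 5, 3 and 5 of the 8 p1 wells. Depth differed beside this, with a median of 55305 counts per p1 Smart-seq3 well and 605497 per p2 Smart-seq3 well. The p1 Smart-seq3 wells themselves ranged from 34106 to 337249 counts, and 1 well held 9087 of their 17531 photosynthesis counts. The 13 control-well genes together held 455 to 849 counts per p1 Smart-seq3 well (median 545.5) and 210 to 1149 per p2 Smart-seq3 well, so the counts of p1 and p2 overlapped. No Smart-seq3 well without a nucleus was among the wells analysed here.

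The Smart-seq3 and Smart-seq2 libraries were compared as summed CPM, and a member was counted when it lay at least 2-fold apart in the same direction in p1 and p2. Only LHCB6 was higher in Smart-seq3, by a log2 ratio of 1.49 in p1 and 1.47 in p2, where 4.17% of 16554 genes were higher. With equal weight for every nucleus, LHCB6 stood at 0.13 and 1.34 and was no longer counted, while PUX3 was, at 3.28 and 1.33. AT3G60245, at 0.35 and 2.41, and PUX3, at 2.62 and 0.96 in the main scaling, were higher in both but not 2-fold in both. By the mean of p1 and p2, the control-well genes SHP1, AT1G10095 and PUX3 stood above LHCB6 and AT3G60245. AT2G01021, PSAL, GAPC2 and AT3G41768 were lower, where 31.9% of genes were lower. The log2 ratios of AT2G01021 were -5.35 in p1 and -3.97 in p2, those of PSAL -4.74 and -1.13, and those of GAPC2 -4.05 and -1.08. Under TMM scaling GAPC2 stood at -3.81 and -0.95 and was no longer counted. LHCA3 stood at -7.32 in p1 and -0.65 in p2, and GAPA-2 reached 5 counts in 0 of 8 p1 Smart-seq3 wells. The median log2 ratio over members other than the control-well genes was -0.83 in p1 and 0.50 in p2, against -1.10 and -2.61 over all nuclear genes. The median control-well gene stood at 2.13 in p1, where the Smart-seq3 wells were the shallower, and -1.52 in p2, where they were the deeper. SHP1 and AT1G10095 had the highest values of the control-well genes that kept their direction, 5.8 and 5.33 in p1 and 0.33 and 0.10 in p2, and TPPI the lowest, -0.36 in p1 and -5.0 in p2.

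In the bulk wells, 49 of 61 members lay within 2-fold of the summed nuclei in both p1 and p2, among them all 23 photosynthesis genes but only 4 of 13 control-well genes. The same share was not computed over all nuclear genes, so these counts show no trait particular to members. No member was at least 2-fold higher in p1 and p2, where 4.7% of 16530 genes were, and 2 were lower, where 6.44% were. These were the control-well genes AT2G30230, with log2 ratios of -1.24 in p1 and -4.02 in p2, and AT3G30300, with -1.03 and -1.44. The median of the ribosomal RNA genes was 0.19 in p1 and -0.92 in p2, and that of the control-well genes was -0.47 and -1.48. In p2, 9 of 13 control-well genes were at least 2-fold lower, against 4271 of 18323 nuclear genes tested. ATYKT62 stood at -0.20 and -3.01 and SCPL12 at -0.88 and -1.83. The median of the photosynthesis genes was 0.22 in p1 and 0.07 in p2, with LHCB4.1 at 0.43 and 0.63, RCA at 0.37 and 0.52, LHCA3 at 0.63 and 0.24 and LHCB3 at 0.64 and 0.10. AT2G01021 stood at -1.72 and -0.97. GAPC2 was at 0.42 and 0.49.

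Between p1 and p2 nuclei, summed Smart-seq2 CPM was at least 2-fold higher in p1 for 8 members and at least 2-fold lower for 18, where 24.8% and 31.2% of 19882 genes were. Of the 8, 6 belonged to translation and metabolism, namely HOG1 with a log2 ratio of 2.04, AT5G60390 with 1.94, GAPC2 with 1.82, AT5G20290 with 1.67, ATMS1 with 1.32 and HSC70-1 with 1.27. The others were PSBO1 and FBA2, each at 1.09. Without ribosomal RNA genes in the library size, PSBO1 and FBA2 fell below 2-fold, at 0.88 and 0.87. The other 21 photosynthesis genes lay between -0.60 and 0.96, and the median of all 23 was 0.22, against -0.10 over all genes tested. The 18 lower in p1 were 11 control-well genes, the 3 ribosomal RNA genes, LpxC2, ERD15, AT1G68945 and AT1G25098. With equal weight for every nucleus, AT3G30300, SHP1 and AT3G41768 were no longer 2-fold lower, at -0.42, -0.38 and -0.91. AT2G30230 had the lowest log2 ratio, -5.48, followed by ATYKT62 at -4.80, SCPL12 at -3.73 and, of the control-well genes, AT1G10095 at -2.53. For the ribosomal RNA genes, the ratio was -2.55 for AT2G01020, -2.48 for AT3G41979 and -1.04 for AT3G41768. Depth moved with the ratio of the control-well genes, whose summed count per deep well had a median of 991 in p1 and 1626 in p2 beside median totals of 2023182 and 414894. Since p1 and p2 are 1 sample each and differ in depth, their biological and technical differences cannot be told apart.

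**Figure D4:**
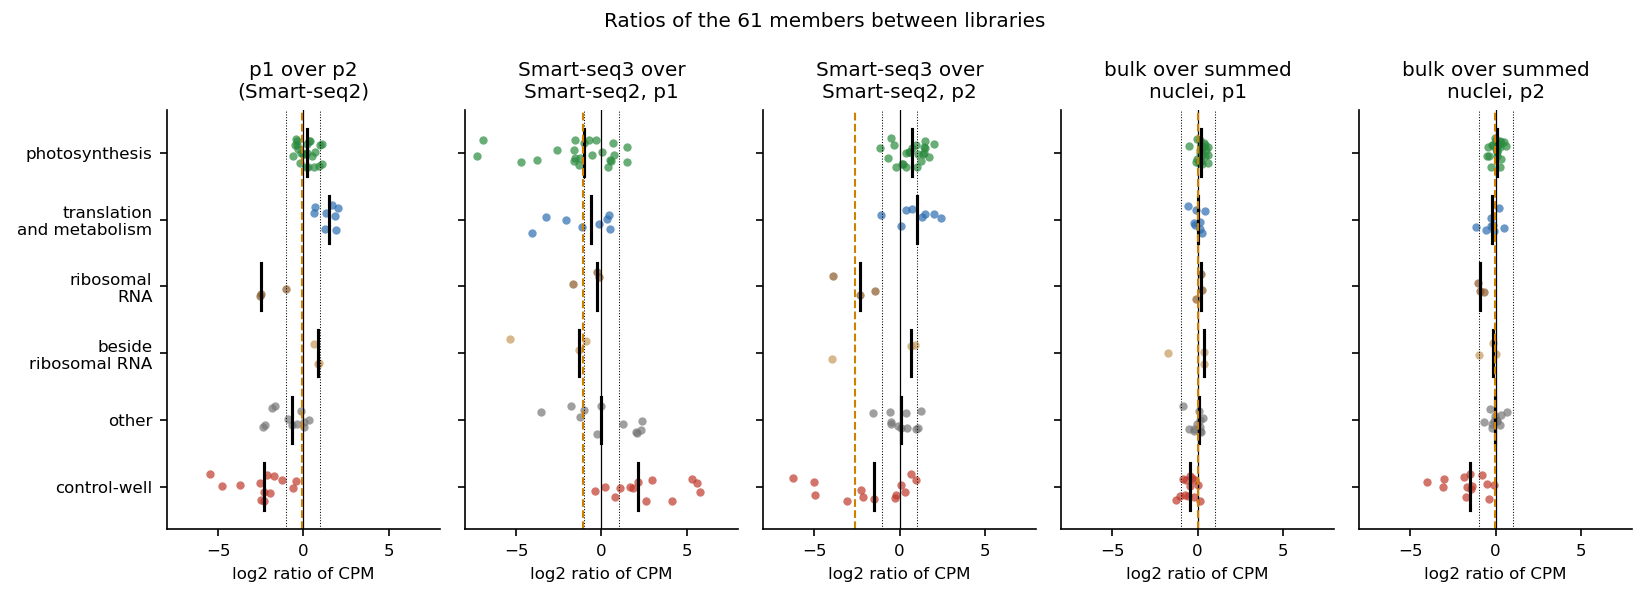
Log2 ratios of CPM for the 61 members by class: p1 over p2 in Smart-seq2, Smart-seq3 over Smart-seq2 in p1 and in p2, and bulk over summed nuclei in p1 and in p2. Points are genes, bars are class medians, dotted lines mark 2-fold and the dashed line is the median of all nuclear genes tested. Translation and metabolism genes lie above 0 in the first panel (median 1.49), and control-well genes lie below 0 there (median -2.29).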

How the data were processed

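Nuclear RNA of 210 wells was measured by Smart-seq2 or Smart-seq3. The authors deposited 1 table of estimated counts (expected counts per feature, 11.2% of values above 0 not whole), with 60886 rows. The submitters' processing notes name TAIR10 and DESeq2 without their role, and the aligner and counting program are not given in the sources used here. Values were rounded to whole numbers. CPM was taken over nuclear, plastid and mitochondrial genes. Ratios used genes with at least 50 counts over both libraries. Counts were not tested, since each group is 1 sample, and the replicate spread is unknown. The rule and the ratios were checked on simulated data. Symbols and sequences came from RefSeq TAIR10.1, in which 28929 of 29417 nuclear genes (98.3%) matched by locus. Python 3.11.15, pandas 2.3.3, pysam 0.24.0 and edgeR 4.0.16 (TMM only) were used. Members, classes and lists were chosen with earlier results of these data known. Named genes were the 10 highest by mean CPM, those in every deep well, the 5 lowest and highest by spread and by each ratio, list members and threshold neighbours. The other members named were chosen after their values were seen. The sources used here do not say whether the molecular identifiers of Smart-seq3 were counted, and reads of Smart-seq2 carry none, so reads are not independent molecules.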

Additional observations from a re-analysis of the deposited data

Results flagged for a closer look

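For 11 members, the Smart-seq3 over Smart-seq2 ratio of CPM lay at least 2-fold higher in p1 or p2 and at least 2-fold lower in the other. Over all nuclear genes tested, 4304 of 18126 were at least 2-fold higher and 9295 lower in p1. In p2, 3412 of 18373 were higher and 11825 lower. The share with opposite directions was not computed over all genes, so the 11 show nothing particular to members. Each p number gives 1 value, and the difference between p1 and p2 was not tested. Log2 ratios were higher in p1 for 5 control-well genes. SCPL12 was at 1.84 in p1 and -4.95 in p2. AT2G30230 was at 5.63 in p1 and -2.14 in p2. PBL1 was at 2.99 in p1 and -1.52 in p2. AT5G18610 was at 2.13 in p1 and -2.27 in p2. ATYKT62 was at 1.68 in p1 and -6.26 in p2. They were lower in p1 for 4 photosynthesis genes, for HOG1 of the methyl cycle and for AT4G36980. PSBP-1 was at -1.25 in p1 and 1.00 in p2. PSAF was at -2.63 in p1 and 1.45 in p2. LHB1B2 was at -1.57 in p1 and 1.76 in p2. HOG1 was at -1.14 in p1 and 1.52 in p2. AT4G36980 was at -1.78 in p1 and 1.06 in p2. LHCB3 was at -1.61 in p1 and 1.24 in p2. The median total of a Smart-seq3 well beside these values was 55305 counts for p1, against 605497 for p2. Over the 8 p1 Smart-seq3 wells, 8 values were checked for a well far from the others and none was found. These wells were still unlike each other, with totals of 34106 to 337249 counts and photosynthesis shares of 0.07% to 4.01%. The p1 ratios therefore rest largely on the deeper wells.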

How the results depend on the processing

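The number of members depended on the thresholds: 119 genes at 1 count, 123 at 70% of the wells, 34 at 90% and 23 after thinning, against 61; the values at 10 counts, at other depths and without rounding were within 1.5 times. At 1 count, 33 members were detected in p1 Smart-seq3, and at 5 counts a median of 29 members was detected per shallow p1 well and 7 per shallow p2 well. Under TMM scaling, 2 members were higher in Smart-seq3 and 5 were lower in bulk wells, and with equal weight for every nucleus 8 were lower in bulk wells; the cause was not tested. Leaving out either control well gave 571 to 1141 counts of the control-well genes. TMM moved the split of all genes between higher and lower in bulk wells to 3.09% and 8.55%, and no filter on low counts moved it to 10.7% and 5.48%, or in Smart-seq3 to 13.6% and 25%. Scaling moved the median log2 ratio of all genes by -0.45 to 0.46 in Smart-seq3, -0.27 to 0.14 in bulk wells and -0.22 to 0.13 between p1 and p2. Of the log2 ratios of named members, 2 in Smart-seq3 and 6 between p1 and p2 fell below 2-fold under a scaling, namely those of GAPC2, LHCB6, FBA2, PSBO1, AT3G30300, SHP1 and AT3G41768 (under 2 scalings); none changed sign. No paired analysis was possible because no result came from a test. With 1 sample per group, low counts and unequal depth limit every comparison.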
